A study of Caenorhabditis elegans with 2 samples.

Results

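The genes described here are the small GTPases of membrane traffic of Caenorhabditis elegans, taken as the protein-coding genes of the WBcel235 annotation on the nuclear chromosomes whose name starts with rab-, arl- or arf-. The rule gave 29 of 19973 protein-coding genes, of which 20 are rab-, 6 are arl- and 3 are arf- genes. The rule itself reads names and no measured value, but this set of names was picked with earlier results of these data known. They were examined in a chromatin immunoprecipitation experiment followed by sequencing (ChIP-seq), which maps the DNA that a protein of interest is attached to. The protein was HLH-30, the worm's TFEB, a DNA-binding factor of the basic helix-loop-helix family known for switching on genes of autophagy and lysosomes. Whole hermaphrodites at the L4 larval stage were used, of strain OP433, genotype unc-119(tm4063) III; wgIs433. This line stably makes HLH-30 with GFP and FLAG fused to its C-terminus, and chromatin was pulled down through the GFP. The labels do not give the promoter that drives the transgene, the state of the worm's own hlh-30 gene or the age of the animals. There were 2 biological replicates in 1 group, both of this strain, so there is no comparison of conditions and no test between groups. Since whole animals were used, a peak does not show in which tissue the tagged protein was at a gene.

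Rab, Arf and Arl proteins are molecular switches that sit on membranes when loaded with GTP and are released or inactive with GDP. Exchange factors load them and GTPase-activating proteins turn them off, while in the active state each recruits its own effectors. Rab proteins give a compartment its identity and direct the tethering and fusion of vesicles. Arf proteins recruit vesicle coats, and Arl proteins act at the Golgi, on lysosomes and in cilia. Several of them also serve autophagy and the delivery of cargo to lysosomes.

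A gene was called occupied when a summit of the authors' thresholded list of 7168 peaks lay in its promoter window, from 1000 bp upstream to 200 bp downstream of any annotated transcript 5′ end. Signal is the strength the authors gave each peak; its scale is not given, so it serves to rank peaks, and the number of reads behind a peak is unknown. The pooled value is the authors' own and no mean of the replicates, whose values were lower at every occupied member. Signal in the thresholded list ran from 31.9 to 1388 with a median of 61.8.

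The sequences under 4 of the summits are shown first because they hold the E-box letters CACGTG or CACATG, the kind of site that basic helix-loop-helix factors recognise, within 50 bp of the summit. The weakest arf-1 peak is shown beside its strongest because it holds the other form. Each run is the plus strand of WBcel235 (RefSeq copy) from 50 bp left to 50 bp right of the summit, 5′ to 3′, and capitals mark CACGTG or CACATG in either orientation (CATGTG is the reverse complement of CACATG). The windows lie at chrIII:5715217-5715317 and chrIII:5714399-5714499 for arf-1, at chrIV:7982215-7982315 for arf-5 and at chrV:1264488-1264588 for rab-1.
arf-1, strongest peak: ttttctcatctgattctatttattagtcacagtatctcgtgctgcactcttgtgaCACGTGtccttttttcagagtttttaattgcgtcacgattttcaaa
arf-1, weakest peak: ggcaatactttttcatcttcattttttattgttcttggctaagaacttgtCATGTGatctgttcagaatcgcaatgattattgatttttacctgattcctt
arf-5: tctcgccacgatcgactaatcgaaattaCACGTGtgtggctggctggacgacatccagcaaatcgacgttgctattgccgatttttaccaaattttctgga
rab-1: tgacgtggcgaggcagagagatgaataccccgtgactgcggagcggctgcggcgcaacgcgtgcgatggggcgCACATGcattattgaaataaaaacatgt

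The 2 strongest peaks at these genes, at rab-18 and rab-7, had neither site. They are shown, chosen after their values were seen, with the longest run of bases that any 2 of the members' strongest summit windows that were compared share, in capitals. The rab-18 window is chrIII:1080676-1080776 and the rab-7 window chrII:11967675-11967775, both on the plus strand.
rab-18: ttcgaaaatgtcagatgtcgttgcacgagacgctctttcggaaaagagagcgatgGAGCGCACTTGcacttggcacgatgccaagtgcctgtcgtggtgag
rab-7: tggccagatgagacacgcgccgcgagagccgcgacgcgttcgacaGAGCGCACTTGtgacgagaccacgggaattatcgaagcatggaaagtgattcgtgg

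HLH-30-GFP had a promoter summit at 12 of the 29 genes, 41.4% (95% Wilson interval 25.5 to 59.3, counting error only), against 20.1% of all protein-coding genes. The 12 were rab-1, rab-5, rab-7, rab-8, rab-11.1, rab-14, rab-18, rab-39, arl-8, arf-1, arf-5 and arf-6. By name, 8 of 20 rab- genes, 1 of 6 arl- genes and 3 of 3 arf- genes were occupied. No test of this difference was made, and the background includes genes that have no class name: of the 10896 genes named by a class of 3 or 4 letters, 24.4% were occupied. By chromosome, the occupied members were 3 of 6 on I, 2 of 6 on II and 2 of 8 on III. They were 3 of 5 on IV, 1 of 1 on V and 1 of 3 on X, too few to compare chromosomes.

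The peaks at these genes were also strong within the list. The strongest promoter signal had a median of 138 over the 12 occupied genes and ran from 77.5 to 659, against a median of 71.3 over all 4012 occupied genes. All 12 were still occupied with the 3584 strongest peaks alone (41.4% of the 29, against 11.7% of all genes). With the 716 strongest peaks 5 were occupied, rab-1, rab-5, rab-7, rab-11.1 and rab-18, or 17.2% against 2.8% of all genes. No strongest peak of an occupied member was within the weaker part of the list: the lowest, at arf-6, ranked 2704 of 7168.

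**Figure D1:**
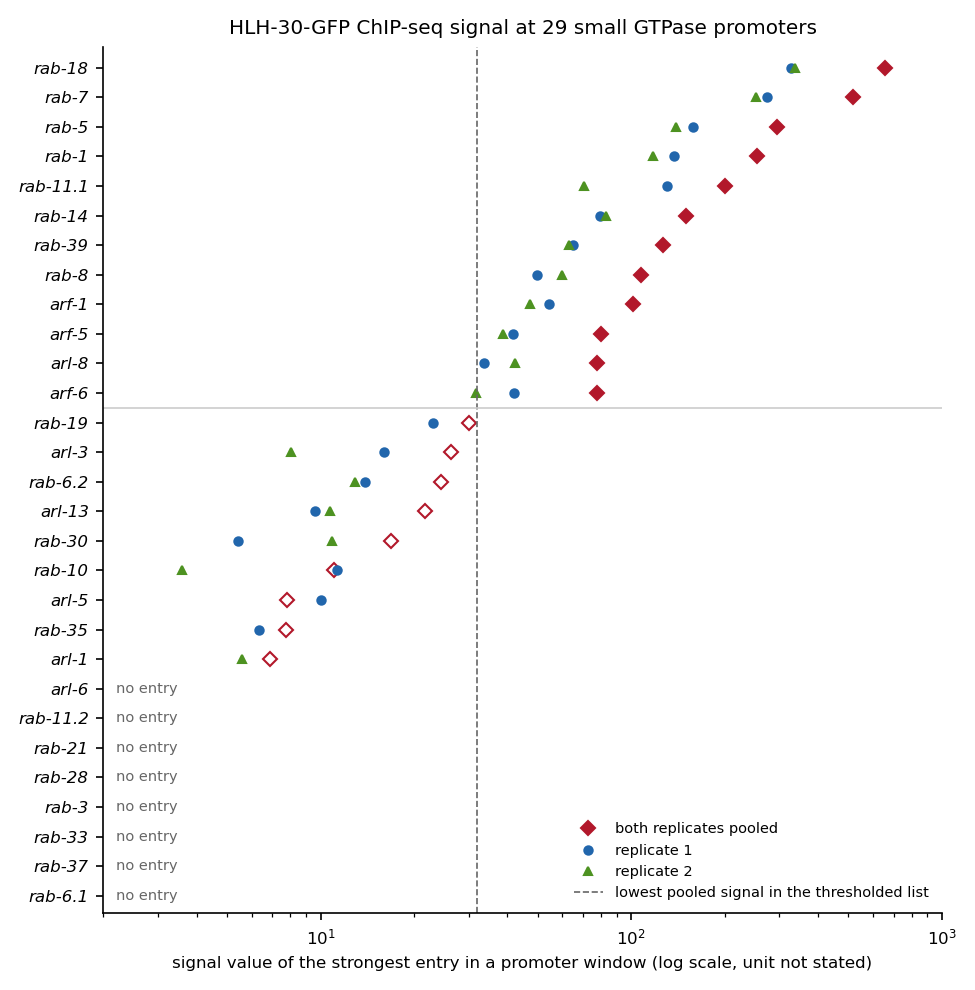
Signal value, on a log axis, of the strongest pooled entry in a promoter window of each of the 29 genes. Diamonds are the authors' pooled value (filled for the 12 genes in the thresholded list, open for entries below it). Circles and triangles are the strongest entries of replicate 1 and replicate 2 that overlap this pooled entry. The dashed line is the list's lowest signal of 31.9. The 12 occupied genes lie between 77.5 and 659, the 9 open diamonds lie between 6.88 and 30.03, and 8 genes have no pooled entry.

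The late endosome and lysosome group had a promoter summit at 4 of 4 genes, rab-7, rab-14, rab-39 and arl-8 (interval 51.0 to 100%). The share was 20.1% of all genes and 24.4% of class-named genes. This group was chosen with earlier results of these data known, so the interval gives counting error only and is no support for an excess. The count was 2 of 4, rab-14 and rab-39, with 500 bp upstream to 100 bp downstream (against 15.8% of all genes). It was the same with each summit given to the nearest 5′ end only (against 16.4%). RAB-7 drives the maturation of late endosomes and phagosomes and their fusion with lysosomes. Its promoter peak had a pooled signal of 519, rank 49 of all peaks (chrII:11967516-11967938). The value was 274 in replicate 1 and 252 in replicate 2, or 263 ± 16.1 (SD, n = 2). The summit lay 794 bp upstream of the rab-7 5′ end and between protein-coding genes. It was only 181 bp upstream of W03C9.5, a gene on the same strand in which the 5′ end of rab-7 lies, and 912 bp upstream of mex-1 on the opposite strand. A second and weak summit, of signal 33.7, lay in a coding exon of rab-7 outside the promoter window.

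RAB-14, which acts in the maturation of phagosomes in the worm, had a peak of pooled signal 150 (chrX:15606854-15607212). Its values were 79.2 in replicate 1 and 83.1 in replicate 2, or 81.1 ± 2.77 (SD, n = 2). The summit was 379 bp upstream of rab-14 and 955 bp upstream of nipi-3, on the opposite strand. A stronger summit lay outside the window: from 2000 bp upstream to 500 bp downstream the highest signal was 544. The rab-39 gene, whose mammalian counterparts act on late endosomes and in autophagy, had a signal of 126 (chrII:9323007-9323198), with 65.3 in replicate 1 and 62.9 in replicate 2, or 64.1 ± 1.64 (SD, n = 2). That summit was 195 bp upstream of rab-39, and 845 bp upstream of egli-1. ARL-8 moves lysosomes and synaptic vesicle precursors along microtubules. The arl-8 peak was the second weakest of the 12, at 77.7 (chrIV:14797491-14797583), with 33.5 in replicate 1 and 42.2 in replicate 2, or 37.8 ± 6.16 (SD, n = 2). It lay 614 bp upstream of arl-8 but 9 bp from the 5′ end of nuo-3, a gene for a subunit of respiratory complex I, in a noncoding part of a nuo-3 exon. Another gene on the nuo-3 strand, 21 bp away, shared it. The 4 signals of this group thus ran from the second highest to the second lowest of the 12.

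Of the 11 genes that act at the endoplasmic reticulum and the Golgi, 4 were occupied, rab-18, rab-1, arf-1 and arf-5 (36.4%, interval 15.2 to 64.6, which includes the 20.1% of all genes). RAB-18, whose mammalian counterpart acts at the endoplasmic reticulum and on lipid droplets, had the strongest peak of all 29 genes. Its pooled signal was 659, rank 15 of all peaks (chrIII:1080579-1080894), with 327 in replicate 1 and 337 in replicate 2, or 332 ± 7.12 (SD, n = 2). The summit was 49 bp downstream of the 5′ end, in a noncoding part of a rab-18 exon. The windows of kbp-4 and of the cell polarity gene par-2, both on the opposite strand, held it too, 175 bp and 675 bp upstream of their 5′ ends. This was the one strongest summit of the 12 that was not upstream of the member's nearest annotated 5′ end; the strongest arf-1 summit was upstream of an inner 5′ end but downstream of the outer one. Among all occupied genes, 94.0% had their strongest promoter summit upstream in the same sense.

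RAB-1 directs transport of vesicles between the endoplasmic reticulum and the Golgi. The rab-1 peak had a signal of 254 (chrV:1264400-1264657), with 137 in replicate 1 and 118 in replicate 2, or 128 ± 13.7 (SD, n = 2). It was 549 bp upstream of rab-1 and 235 bp upstream of C39F7.5, on the opposite strand. ARF-1 recruits vesicle coats at the Golgi. The arf-1 gene had 3 promoter summits. It and rab-11.1 were the members with 2 or more, 2 of 29, against 2.2% of all genes. The strongest had a signal of 101.4 (chrIII:5715196-5715394), with 54.6 in replicate 1 and 47.4 in replicate 2, or 51.0 ± 5.08 (SD, n = 2). The next, of 79.8, had 51.8 in replicate 1 and 29.8 in replicate 2. Both lay in an intron of arf-1, 848 and 354 bp upstream of its second annotated 5′ end. The weakest, of 62.3, was 437 bp upstream of the outer 5′ end, in a noncoding part of an exon of rbm-26. It differed most between replicates, at 16.5 in replicate 1 and 45.3 in replicate 2. None of the arf-1 peaks lay in the window of another gene.

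ARF-5 bears the name of a mammalian Arf of the Golgi. The arf-5 peak had a signal of 80.2 (chrIV:7982090-7982439), with 41.7 in replicate 1 and 38.6 in replicate 2, or 40.2 ± 2.26 (SD, n = 2). It was 261 bp upstream, between protein-coding genes and in no other gene's window. The 7 other genes of this group had no promoter summit. They were rab-6.1 and rab-6.2, which act in transport at the Golgi, arl-1, which recruits golgin tethers, arl-5, rab-19, rab-30 and rab-33.

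In the group of endocytosis, recycling and the cell surface, 4 of 8 genes were occupied, rab-5, rab-11.1, rab-8 and arf-6. That was 50% (interval 21.5 to 78.5, which includes the 24.4% of class-named genes), against 20.1% of all genes. RAB-5 organises early endosomes and their fusion. The rab-5 peak had a signal of 294, rank 225 (chrI:9307577-9307871), with 158 in replicate 1 and 139 in replicate 2, or 149 ± 13.7 (SD, n = 2). It lay between the divergent genes rab-5, 708 bp away, and nmat-2, 890 bp away. RAB-11.1 works on recycling endosomes. The rab-11.1 promoter held 2 summits, both shared with the ribosomal protein gene rpl-7 on the opposite strand. The stronger, of 200 (chrI:110579-110826), had 131 in replicate 1 and 70.5 in replicate 2, or 101 ± 42.8 (SD, n = 2), and was nearer to rpl-7 (321 bp) than to rab-11.1 (660 bp). The weaker, of 102, was 51 bp upstream of rab-11.1, with 49.96 in replicate 1 and 49.99 in replicate 2. Of the 12 strongest peaks, the stronger rab-11.1 peak had the highest ratio between replicates, at 1.86 times higher in replicate 1. Its paralog rab-11.2 had no promoter summit and no weaker entry in its window, and the nearest summit was 22265 bp away.

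RAB-8 and RAB-10 act in exocytosis and recycling to the cell surface. The rab-8 peak had a signal of 108.01 (chrI:3684499-3684718), with 49.6 in replicate 1 and 59.8 in replicate 2, or 54.7 ± 7.19 (SD, n = 2). It was 512 bp upstream of rab-8 and 183 bp upstream of D1037.1. The rab-10 gene was not occupied, but a summit of signal 191 lay 1277 bp from its 5′ end, just outside the window. ARF-6 acts in endocytosis and recycling at the plasma membrane. The arf-6 peak had a signal of 77.5 (chrIV:16946781-16947130), with 42.1 in replicate 1 and 31.8 in replicate 2, or 36.9 ± 7.26 (SD, n = 2). It was about as far from arf-6 (164 bp) as from Y116A8C.9 (156 bp), on the opposite strand. The genes rab-21 and rab-35, which act in endocytosis, had no promoter summit.

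None of the 4 cilium genes was occupied. These were arl-3, arl-6 and arl-13, whose human counterparts are tied to ciliary disease, and rab-28. Nor was either gene of regulated secretion, rab-3, which acts on synaptic vesicles, and rab-37. With 4 and 2 genes, the upper 95% Wilson bounds were 49.0% and 65.8%, above the 20.1% of all genes. The role groups are small and were chosen with earlier results of these data known. They were not tested against each other or against all genes, and their intervals give counting error only.

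**Figure D2:**
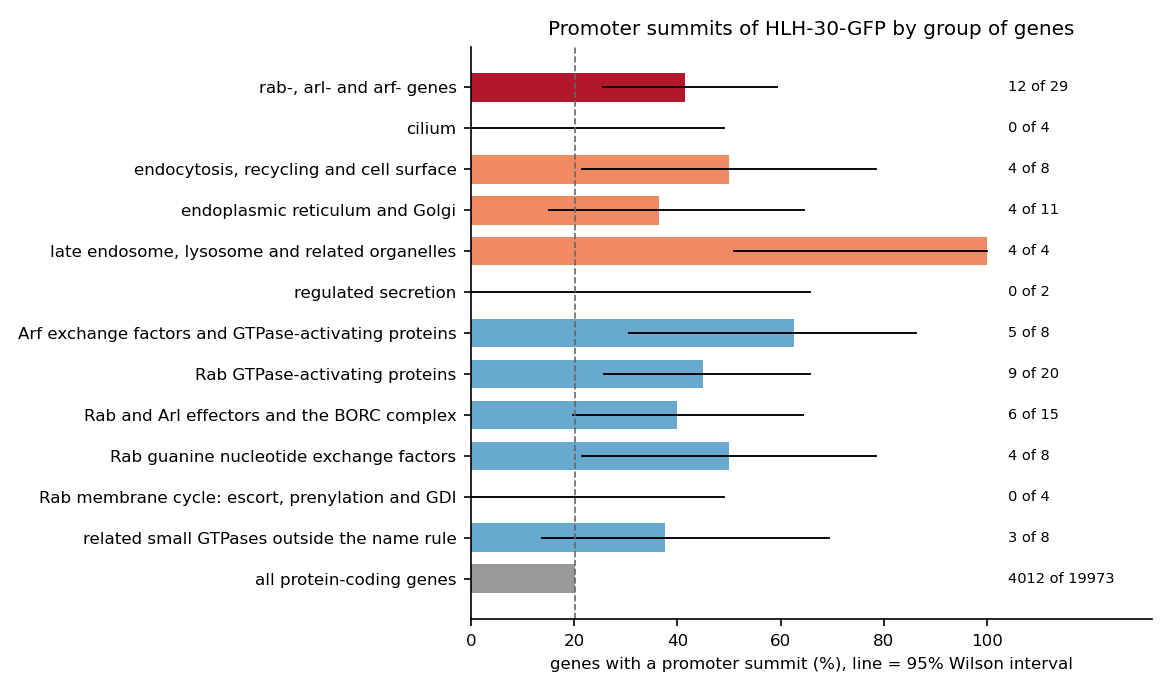
Share of genes with a promoter summit in percent, with the count beside each bar and the 95% Wilson interval as a line: the 29 genes on top, then their role groups, then lists of regulators, effectors and related GTPases, and all protein-coding genes, drawn with no interval, at the bottom. The 29 genes stand at 41.4% and all genes at 20.1% (dashed line), and the intervals of groups of 8 or fewer genes are wide.

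Both replicates showed these peaks. The authors made the thresholded list from these same replicates, by how well ranks repeat per the deposited text, so their overlap here is no separate check. The list holds the 7168 entries of highest pooled signal. Of these, 17 had no overlapping entry in replicate 1 and 33 had none in replicate 2. Each of the 12 strongest promoter peaks overlapped, by at least 1 bp, an entry among the 7168 strongest of replicate 1 and of replicate 2. Over all 15 promoter peaks of the members this held for 14, the exception being the weakest arf-1 peak, and over all thresholded peaks for 78.5%. The latter include the weaker peaks, whereas the 12 were all among the 3584 strongest. The ratio of replicate 1 to replicate 2 had a median of 1.09 over the 12 peaks and ran from 0.794 to 1.86, with 8 of 12 above 1. Over all thresholded peaks, weaker ones included, the 5th and 95th percentiles of this ratio were 0.495 and 1.95. Spearman's rho between the replicates over the 12 peaks, which share their libraries and are not independent replicates, was 0.96 as a description. Using the 7168 strongest peaks of 1 replicate alone, replicate 1 gave 14 occupied members (48.3%, against 20.2% of all genes) and replicate 2 gave 13 (44.8%, against 20%). The 12 were occupied in both, against 16.8% of all genes.

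**Figure D3:**
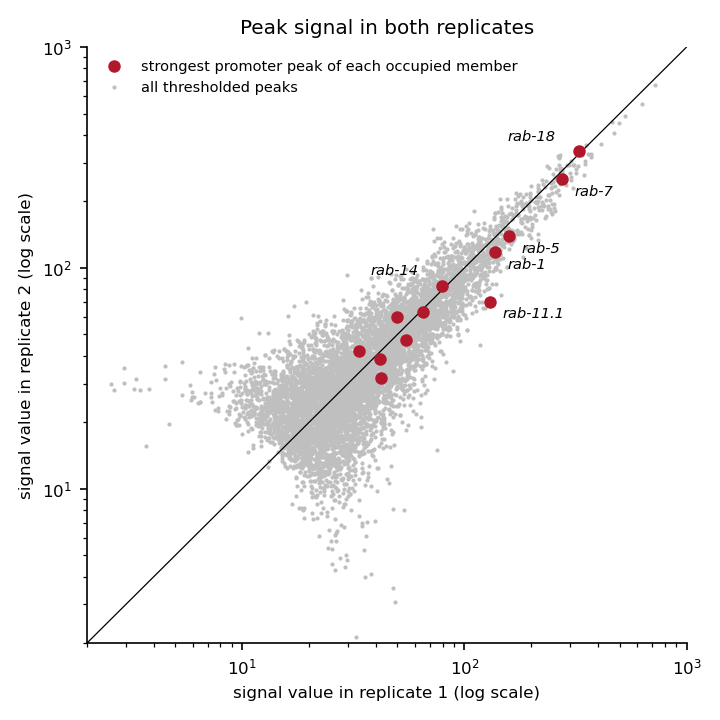
Signal value of each peak in replicate 1 (x axis) and replicate 2 (y axis), both log scales: large points are the strongest promoter peaks of the 12 occupied genes, small points all thresholded peaks that have an entry in both replicates, and the line marks equal values. The ratio of the large points runs from 0.794 to 1.86, and rab-11.1 lies farthest below the line (131 in replicate 1 and 70.5 in replicate 2).

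Genes without a thresholded promoter summit were checked in the authors' pooled list of 30000 entries, which holds peaks and background together. Of the 17, 9 had an entry in a promoter window and 8 had none. In all, 21 of 29 members (72.4%) had some entry, against 39.6% of all genes. The highest was at rab-19, at 30.03 and rank 7553, just under the lowest thresholded signal of 31.9. It had 23.0 in replicate 1 and no overlapping entry in replicate 2. The arl-3 gene followed with 26.3 (16.05 in replicate 1 and 8.06 in replicate 2), then rab-6.2 with 24.5 (13.9 in replicate 1 and 12.9 in replicate 2) and arl-13 with 21.7 (9.61 in replicate 1 and 10.8 in replicate 2). The entries at rab-30 (16.9), rab-10 (11.0), arl-5 (7.8), rab-35 (7.74) and arl-1 (6.88) were lower. All 9 were under the authors' threshold. The 8 genes with no pooled entry were rab-3, rab-6.1, rab-11.2, rab-21, rab-28, rab-33, rab-37 and arl-6. For 3 genes 1 replicate alone placed a summit among its 7168 strongest. These were rab-19 (23.0) and rab-3 (17.6) in replicate 1, with no overlapping entry in replicate 2. The other was arl-3 (20.2) in replicate 2, with 4.67 in replicate 1. That arl-3 summit was 267 bp upstream, a different site from the pooled arl-3 entry of 26.3, which was 770 bp upstream.

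Most of these peaks also lay in the window of a neighbour. The strongest promoter peak was shared with at least 1 other gene for 10 of the 12 occupied members (83.3%), against 38.4% of all occupied genes. Only arf-1 and arf-5 had a summit in no other gene's window, 2 of 29 (6.90%) against 12.6% of all genes. When each summit was given only to the nearest 5′ end in whose window it lay, 7 members remained (24.1%, interval 12.2 to 42.1). That interval includes the 16.4% of all genes. The 7 were arf-1, arf-5, rab-5, rab-11.1, rab-14, rab-18 and rab-39. The 5 others, rab-1, rab-7, rab-8, arl-8 and arf-6, had their peak nearer to a neighbour. The strongest summits were far from the members' own 5′ ends, at a median of 530.5 bp, against 238 bp over all occupied genes.

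The neighbours were mostly divergent, that is, transcribed away from the member from a start on the other side of the shared stretch. Of the 7 members with a divergent neighbour within 1000 bp upstream, 6 were occupied, the exception being rab-11.2. Over all genes in that arrangement 34.8% were. Of the 10 members with a neighbour on the same strand within 1000 bp, 2 were occupied, arf-1 and arf-5, against 14.5% of all such genes. Of the 5 with a divergent neighbour further away, 3 were occupied (rab-5, rab-14 and rab-39), against 20.6%, and of the 3 with a more distant neighbour on the same strand none was, against 16.1%. The last 4 have their 5′ end inside another gene, and of these rab-7 was occupied, against 17.4%. From a peak between 2 divergent starts it cannot be told which gene, or whether both, it belongs to. By number of annotated 5′ ends, 9 of 21 members with 1 were occupied, against 15.6% of such genes, and 3 of 8 members with 2 or more, against 32.7%.

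**Figure D4:**
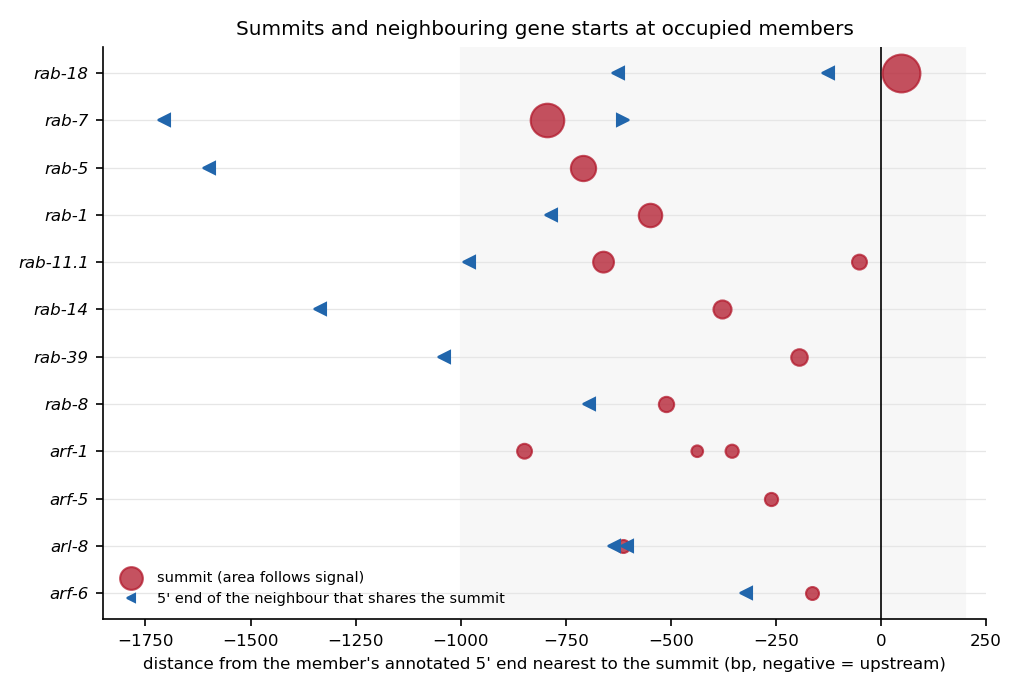
Position of each promoter summit (circles, area in proportion to signal) and of the 5′ ends of the neighbours that share it (triangles, pointing in the neighbour's direction of transcription) in bp from the member's nearest annotated 5′ end, with the promoter window shaded. The rab-18 summit lies 49 bp downstream of the 5′ end and the other strongest summits upstream, up to 848 bp at arf-1, and at rab-1, rab-7, rab-8, rab-11.1, arl-8 and arf-6 a triangle lies nearer to the largest circle than the member's own 5′ end at 0.

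In the window of 500 bp upstream to 100 bp downstream 7 members were occupied (24.1%, interval 12.2 to 42.1, which includes the 15.8% of all genes). With 2000 bp upstream to 500 bp downstream 17 were (58.6%, interval 40.7 to 74.5, against 25.9%). Starts taken from RefSeq gave the same 12 members, against 19.7% of genes. From the outermost 5′ end only, 12 were occupied, against 18.5%, and 12 when any base of a peak counted, against 21.4%. With the outermost 5′ end, arf-1 was occupied only through its weakest peak, of 62.3 (16.5 in replicate 1 and 45.3 in replicate 2).

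The E-box letters CACGTG or CACATG were present at the 4 summits shown first and at 1 more. Within 50 bp of a promoter summit, CACGTG or CACATG on either strand was found at 4 of 29 members (13.8%), against 4.33% of all genes. These shares count unoccupied genes too. Of the occupied genes alone, a site was found at 4 of 12 members and at 864 of 4012 genes. CACGTG was present at arf-1 and arf-5 (6.90% of members, against 1.93% of genes) and CACATG at arf-1, rab-1 and rab-11.1 (10.3%, against 2.65%). Per peak, 5 of the 15 promoter peaks of members held 1 of the sites (33.3%). The share was 21.5% of all 3679 promoter peaks and 25.3% of all thresholded peaks. At the 12 strongest peaks alone, CACGTG was at 2 (arf-1 and arf-5), against 9.7% of promoter peaks. CACATG was at 1 of these 12 (rab-1), against 12.6%. Within 25 bp of a summit a site was at 2 members, against 2.46% of genes, and within 100 bp at 5, against 5.72%. The site centres were 7.5 bp from the strongest arf-1 summit, 2.5 bp from the weakest arf-1 summit and 19.5 bp from the arf-5 summit. They were 25.5 bp from the rab-1 summit and 26.5 bp from the weaker rab-11.1 summit. The 3 members with the highest signal, rab-18, rab-7 and rab-5, had neither site there. Of the 4 members with a site, rab-1 came next in signal, at 254 and with the site at that peak. At rab-11.1 the stronger peak, of 200, had neither site, and the site was at the weaker one, of 102. The signals of arf-1 and arf-5 were among the lower ones.

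Other forms of the E-box stood near some of the strong summits. CAAGTG, whose reverse complement is CACTTG, was within 50 bp of the strongest summit of rab-18, rab-7 and arf-6, 3 of 12, against 7.61% of all promoter peaks. At rab-7 its centre was 2.5 bp from the summit, and the rab-18 window held it at 12.5, 18.5 and 33.5 bp from the summit. CAGATG was at 4 of 12 (arf-1, rab-7, rab-18 and rab-39), against 4.97% of promoter peaks, and CAACTG at rab-5 (4.5 bp from the summit), against 6.63%. These letters were picked out among 10 forms after the windows were read, in 12 peaks, and no test was made.

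The run GAGCGCACTTG, 11 bases long and ending in CACTTG, was the longest shared among the 36 pairs of members' strongest summit windows outside chromosome I, and was found at rab-7 and rab-18. It stood within 50 bp of 43 of all 7168 summits on either strand (0.6%), and near 3 points placed 500 bp to the left of the summits (0.0419%). The nuclear chromosomes hold 369 such runs. The 43 peaks had signals from 31.9 to 684, with a median of 82.1, and 39 of them lay in promoter windows. The rab-7 window also shared 10 bases, CGCGACGCGT, with the rab-14 window, a run found at 17 of all summits (0.237%) and near 1 of the points to the left (0.014%). An equally long run, AAATAAAAAC, was shared by the rab-1 and rab-39 windows, and it was found at fewer summits, 18 (0.251%), than points to the left, 26 (0.363%). All 3 runs were found by their presence at these genes, so the counts describe the list and support nothing about them.

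The letters were also common in promoters without a peak. In the 1201 bp window at the outermost 5′ end, CACGTG was present in 7 of 29 members (24.1%), against 18.4% of all genes, and CACATG in 11 (37.9%), against 32.9%. One or the other was in 9 of the 12 occupied members and in 6 of the 17 others, against 51.2% of occupied and 43.7% of other genes. The 6 were rab-3, rab-33, rab-37, arl-3, arl-6 and arl-13. At rab-7, rab-5, rab-14 and arl-8 CACGTG was in the window but over 50 bp from the summit. The windows of rab-18, rab-39 and arf-6 were occupied and held neither site.

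Genes that act on or with these GTPases were counted as well, in lists chosen with earlier results of these data known. The intervals give counting error only and are no test. Of 63 regulators, effectors and related GTPases from lists chosen for this work, 27 had a promoter summit (42.9%, interval 31.4 to 55.1). The share was 20.1% of all genes and 24.4% of class-named genes. With the nearest 5′ end only, 22 of the 63 were occupied, against 16.4% of all genes. The strongest signals of the 27 had a median of 71.6, against 71.3 over all occupied genes. GTPase-activating proteins of Rabs were occupied at 9 of 20 (interval 25.8 to 65.8%, against 20.1% of all genes and 24.4% of class-named genes). The strongest were tbc-14 at 536 (282 in replicate 1 and 254 in replicate 2), rbg-1 at 320, rbg-2 at 215 and tbc-11 at 179. Exchange factors of Rabs were occupied at 4 of 8 (interval 21.5 to 78.5%, which includes the 24.4% of class-named genes, against 20.1% of all genes). They were rme-4, which acts on RAB-35 in yolk receptor recycling, at 369, glo-4, which acts on the Rab-like protein GLO-1 of gut granules, at 67.8, rabx-5 at 56.3 and rme-6 at 34.7, the last pair acting on RAB-5. The peaks of tbc-14, rme-4, glo-4 and rabx-5 were in no other gene's window. Those of rbg-1, rbg-2, tbc-11 and rme-6 were also in the windows of plp-2, T22C1.12, pifk-1 and pigx-1, respectively.

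Regulators of Arf proteins were occupied at 5 of 8 (interval 30.6 to 86.3%, against 20.1% of all genes and 24.4% of class-named genes). The strongest were git-1 at 67.9, cnt-1 at 58.7, grp-1 at 48.9 and cnt-2 at 45.6. The git-1 and grp-1 peaks were shared with mboa-7 and K06H7.7. Effectors and subunits of BORC, the complex that brings ARL-8 to lysosomes, were occupied at 6 of 15 (interval 19.8 to 64.3%, which includes the 20.1% of all genes). The strongest were rme-1, which acts in endocytic recycling, at 219, and sec-15, a subunit of the exocyst, at 124. After them came rilp-1 at 105 and eea-1, a tether of early endosomes, at 71.6. The sec-15 and eea-1 peaks were shared with C28G1.2 and gut-2. No gene of the BORC complex on the list was among the 6. None of the 4 genes for the escort protein, the prenylation enzyme and the GDP dissociation inhibitor of Rabs was occupied, with an upper bound of 49.0%.

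Of 8 related GTPases outside the name rule, 3 were occupied (interval 13.7 to 69.4%, which includes the 20.1% of all genes). The gene unc-108, which encodes the worm's RAB-2, an organiser of the Golgi and of dense core vesicles, had a signal of 556, rank 33 of all peaks (chrI:3824216-3824644). Its values were 267 in replicate 1 and 293 in replicate 2, so a Rab gene with another type of name had a signal between those of rab-18 and rab-7. The gene sar-1, for the GTPase of the COPII coat, had 88.6. The gene aex-6, which encodes RAB-27 of secretory vesicles, had 33.4 (25.3 in replicate 1 and 5.37 in replicate 2), close to the lowest signal of the list.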

How the data were processed

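HLH-30-GFP ChIP-seq of whole L4 worms was analysed from peak lists in narrowPeak format on ce11 (WBcel235), for 2 biological replicates in 1 group. The authors made a list of peaks and background from each replicate's alignments, 1 from both together, and from these 3 a thresholded list by the irreproducible discovery rate, a measure of how well ranks repeat, per the deposited sample text. No control library was used here; for caller, aligner and threshold, the sources used here name none. The deposited signal of a peak is the authors' value. Every 1 of the 7168 thresholded peaks is in the pooled list of 30000, at its top by signal. Read depth is unknown.

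Summits were placed in promoter windows of Ensembl release 115 in Python 3.11.15, with pandas 2.3.3. A replicate alone was represented by its 7168 strongest entries, and a peak's replicate value is its strongest entry overlapping by at least 1 bp. An annotated 5′ end of a trans-spliced transcript need not be a start of transcription. Placement was tested on simulated summits and gave the same pairs as bedtools 2.31.1. The lists on ce10 were not used.

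All members are accounted for: each occupied gene is named with its strongest promoter peak, each other gene with its strongest pooled entry, and of the other lists the 4 strongest occupied genes. The members, role groups and lists were chosen with earlier results of these data known. The names arf-1 and arf-5 were added to their role group after the annotation was read, since the list held older names; rab-2, rab-27, arf-1.1, arf-1.2 and arf-3 matched no gene. Of the 65 names in the other lists, tbc-4 and tbc-15 matched no gene. Alternatives were other windows, the outermost 5′ end, any base of a peak, the nearest gene, the stronger peaks, 1 replicate alone, other distances to the E-box and, added after the data were seen, RefSeq 5′ ends.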

Additional observations from a re-analysis of the deposited data

How the results depend on the processing

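The count of 12 occupied members was 12 with the outermost 5′ end only, with any base of a peak in the window, with the 3584 strongest peaks and with RefSeq 5′ ends, added once the data had been seen. With the outermost 5′ end, arf-1 counted only through its weakest peak. The count was 13 and 14 with 1 replicate alone, and 17 with 2000 bp upstream to 500 bp downstream, which added rab-6.1, rab-10, rab-19, rab-21 and rab-33. With 500 bp upstream to 100 bp downstream it was 7, without rab-1, rab-5, rab-7, rab-8 and arl-8, against 15.8% of all genes. It was also 7 with the nearest 5′ end only, without rab-1, rab-7, rab-8, arl-8 and arf-6, against 16.4% of all genes. For both counts of 7 the interval was 12.2 to 42.1%, which includes these shares of all genes. Over all genes the count of 4012 was 2332 with the 3584 strongest peaks and from 3146 to 5175 under the other settings. The 4 members with an E-box near a summit were 2 within 25 bp, 2 with CACGTG only, 5 within 100 bp, and 5 or 6 with 1 replicate alone. The median strongest signal of 138 was 102 in the narrower window, 108.01 in the wider one and 126 with the nearest 5′ end only, since other genes or peaks then counted. Of the 12 strongest peaks, 11 were found in both replicates with an overlap of at least 50% of each peak, and 11 with the 3584 strongest entries. No paired analysis was possible because there is 1 group and no test. The unknown read depth and the unstated signal scale limit what a weak or absent peak means.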
